A study of Mus musculus with 3 samples.

Results

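The genes described are the renin-angiotensin genes Ren1, Agt, Ace, Agtr1a and Mme, 5 of the 32594 genes counted in whole mouse prostate by droplet single-cell RNA sequencing. They were selected by symbol with earlier results of these libraries in view, in which Ren1 was a leading gene of a luminal cluster, so their levels are given as a description with no test. There was 1 library from Srd5a2 knockout tissue and there were 2 libraries from Srd5a2 heterozygous tissue, all from C57BL6 mice labelled 12 to 15 weeks old, with no treatment given in the labels. Srd5a2 encodes the steroid 5-alpha-reductase that makes dihydrotestosterone in the prostate, and no wild-type tissue was analysed here. All libraries share the same preparation, a collagenase digestion of 2 h at 37 °C in medium that held dihydrotestosterone, followed by 10 min of TrypLE. The number of animals behind each library is not stated, so differences between the 2 heterozygote libraries measure only the spread between these samples.

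In the circulation, renin (Ren1) cuts angiotensinogen (Agt) to angiotensin I, and angiotensin-converting enzyme (Ace) turns that peptide into angiotensin II, which acts mainly through the receptor Agtr1a in mice. Mme, also called neprilysin or CD10, is a cell-surface peptidase that breaks down angiotensin I as well as bradykinin, substance P and natriuretic peptides. Renin is best known from the juxtaglomerular cells of the kidney and angiotensinogen from the liver. C57BL6 mice carry Ren1 and lack the duplicate Ren2, so renin reads are not split between near-identical copies in this strain.

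On GRCm38 (mm10) with GENCODE vM21, Ren1 (ENSMUSG00000070645.5) lies on the plus strand of chromosome 1 from 133350510 to 133360325. Agt (ENSMUSG00000031980.10 in the files) lies on the minus strand of chromosome 8 from 124556534 to 124569706. Ace (ENSMUSG00000020681.14) lies on the plus strand of chromosome 11 from 105967945 to 105989964, where the antisense gene Gm11651 overlaps it. Agtr1a (ENSMUSG00000049115.15) lies on the plus strand of chromosome 13 from 30336441 to 30382867 and holds the sense-intronic gene Gm48161. Mme (ENSMUSG00000027820.12) lies on the plus strand of chromosome 3 from 63241537 to 63386030.

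The stretch around the TATA box is shown for renin and its substrate, the members whose promoter windows held one. RefSeq promoter windows (GRCm38.p6, 250 bases before to 50 bases after a start) were matched for Ren1, Agt, Ace and Mme, 7 windows in all. The letters TATAAA on the strand of the gene were found in 2 of the 7, those of Ren1 and Agt, and in 8.32% of all 32851 windows. The TATAAA of Ren1 lies within the GENCODE gene given above, whose start is upstream of the RefSeq start of its window. The capitals below mark these 6 letters in 30 bases read 5′ to 3′ on the strand of the gene, from chr1:133350633-133350662 (plus) for Ren1 and chr8:124569719-124569748 (minus) for Agt.
Ren1: atacatggtgtgTATAAAagaaggctcagg
Agt: ccaccccttgagTATAAAtaagcctgcttg
The hexamer bound as a half-site by androgen and glucocorticoid receptors, AGAACA or its reverse complement TGTTCT (both strands searched), was in 0 of the 7 windows and in 18.97% of all windows. Ren1 gave 330376 UMIs in all cells and Agt gave 19, raw counts that are not scaled for transcript length.

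The cells analysed numbered 9146 in the knockout, 4531 in heterozygote 1 and 9455 in heterozygote 2, with median totals of 4373, 6915 and 4699 UMIs per cell. Heterozygote 1 had 5000 barcodes and no barcode under 2466 UMIs, whereas the lowest totals were 586 and 500 UMIs in the knockout and heterozygote 2. Between 6 and 26 barcodes were shared by any pair of libraries. Srd5a2 itself had 3 UMIs in 605 smooth muscle cells of the knockout (cluster 8), against 59 in 130 and 51 in 181 cells of heterozygotes 1 and 2. Clusters 11 and 14, which carry seminal vesicle markers, came almost wholly from the knockout library, and clusters 7, 21 and 26 mostly from heterozygote 2. Named luminal clusters made up 13.4% of knockout cells and 49.4% and 43.0% of the cells of heterozygotes 1 and 2, so whole-library levels mix cell makeup with level per cell.

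Luminal secretory cells, which make the prostatic fluid, fell into several clusters, and the 5 genes were spread unevenly over these and the unnamed cluster 2. Cluster 2 is led by Banf2, Ren1, Pde4c and Scin, and cluster 3 by Srpx, C1s2 and Pnliprp1. Cluster 1 is led by Gpx3, Nlrp10 and Tcaf3, cluster 15 by H2-Q10, Msmb and Defb50, and cluster 17 by Sbp and Spink5. Cluster 2 detected 4 of the 10 luminal secretory markers but also had the endothelial gene Pecam1 among its leading genes, and it therefore carries a number and no cell type name. With another random seed the matching cluster did not have Pecam1 among its leading genes and took the luminal secretory name. In cluster 2, Pecam1 was at 224, 234 and 249 CPM (the UMIs of a gene per 1000000 UMIs of the same cells) in the knockout and heterozygotes 1 and 2, while the endothelial gene Cdh5 was at 0.16, 0.34 and 0.30 CPM. In the endothelial cluster 19, Cdh5 was at 570, 669 and 879 CPM. Epcam, an epithelial adhesion gene, was at 904, 862 and 633 CPM in cluster 2.

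Most Ren1 UMIs were in clusters 2 and 3, which together held 86.1% of them in the knockout, 91.8% in heterozygote 1 and 80.0% in heterozygote 2. These clusters held 7.65%, 17.3% and 14.9% of the cells of the same libraries. In cluster 2, Ren1 was at 6039 CPM in the knockout, 12236 CPM in heterozygote 1 and 8759 CPM in heterozygote 2. In cluster 3 the levels were 3491, 7038 and 6117 CPM. The knockout value was the lowest of the libraries in both clusters, and cluster 2 stood above cluster 3 within each library. The knockout level of cluster 2 nevertheless lay just below the lower heterozygote level of cluster 3. On the log2 scale with TMM-scaled totals and a prior count of 2, the knockout minus heterozygote difference in cluster 2 was -0.96 against heterozygote 1 and -0.42 against heterozygote 2. In cluster 3 it was -0.95 and -0.68.

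**Figure D1:**
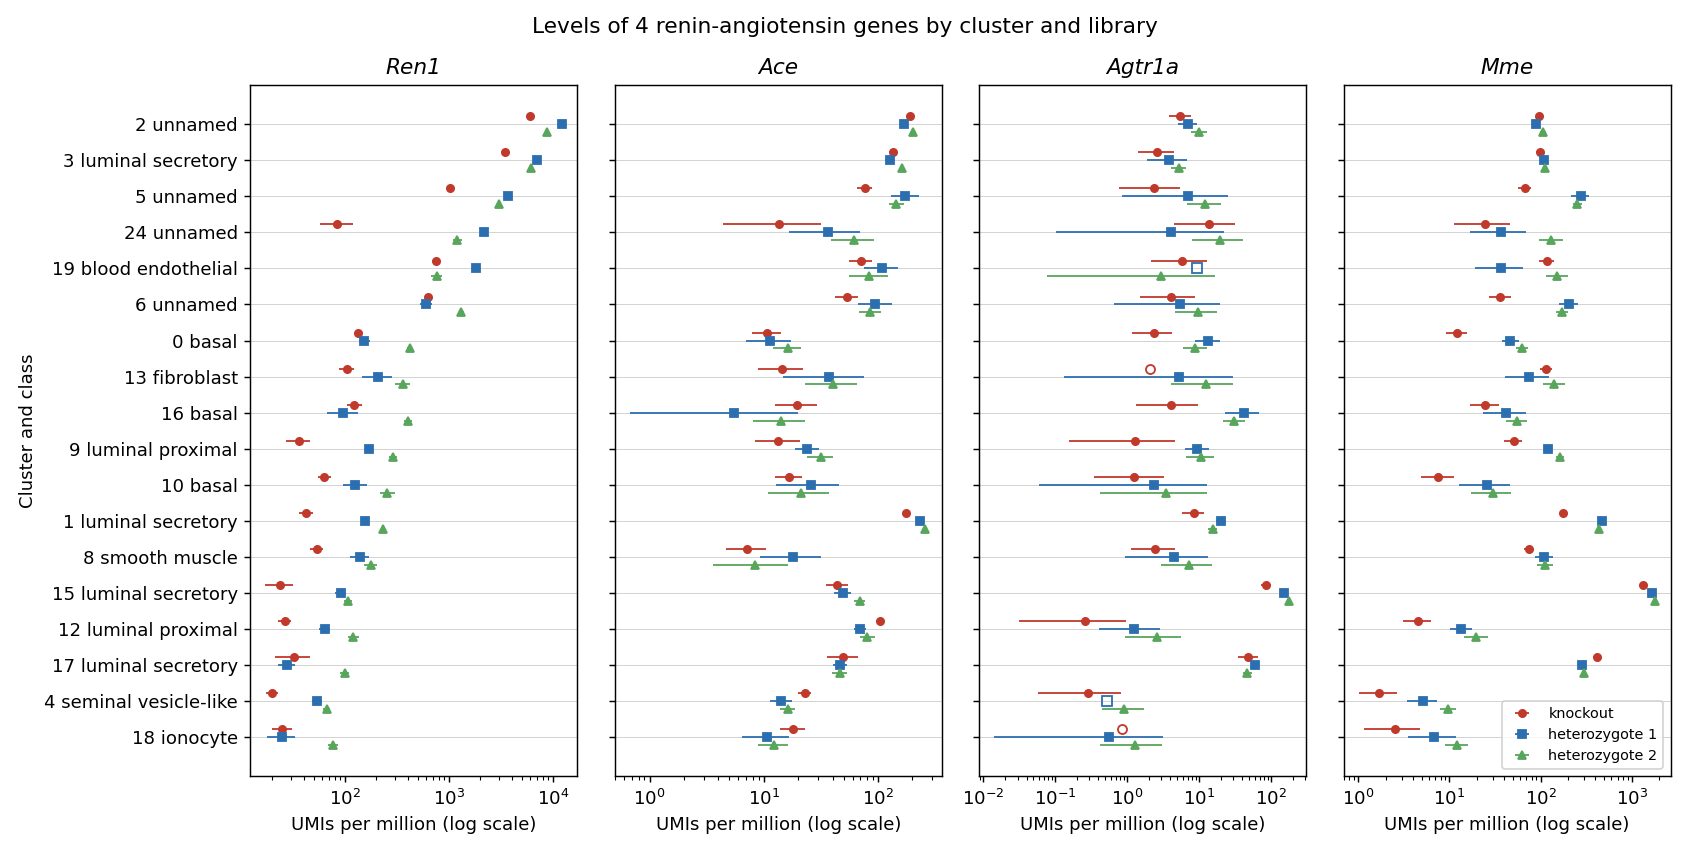
Level of Ren1, Ace, Agtr1a and Mme in CPM (x axis, log scale) in each cluster with at least 50 cells in every library (y axis, ordered by mean Ren1 level); symbols are the 3 libraries, bars are exact Poisson 95% intervals that cover counting error only, and open symbols mark 0 UMIs, drawn at the floor of 3 UMIs. Ren1 is highest in clusters 2 and 3, Ace is high in clusters 1, 2, 3 and 5, and Agtr1a and Mme are highest in cluster 15.

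Ren1 was detected in nearly every cell of cluster 2, in 376 of 394 knockout cells, 508 of 521 heterozygote 1 cells and 519 of 536 heterozygote 2 cells. After thinning each cell to 1000 UMIs the shares with a Ren1 UMI were 81.0%, 91.4% and 88.4% in cluster 2 and 65.7%, 84.5% and 84.6% in cluster 3. The median cell of cluster 2 had 40.9 Ren1 UMIs per 10000 in the knockout, 124 in heterozygote 1 and 86.3 in heterozygote 2. The spread within a library was wide, and the middle 50% of knockout cells ran from 13.2 to 90.9 while that of heterozygote 1 ran from 59.4 to 174. In cluster 3 the medians were 19.1, 57.5 and 56.5 per 10000. The knockout medians were thus below both heterozygote medians, with cells of all libraries overlapping.

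**Figure D2:**
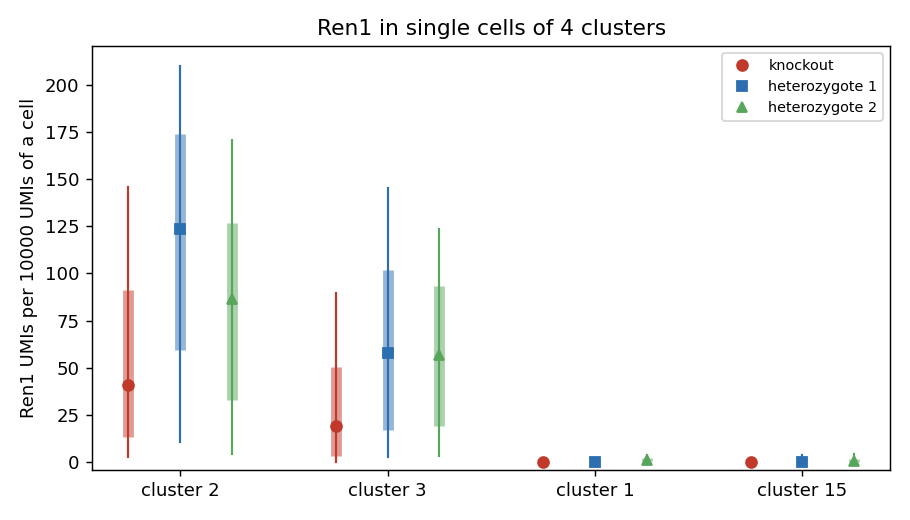
Ren1 UMIs per 10000 UMIs of a cell (y axis) in clusters 2, 3, 1 and 15 (x axis) for the 3 libraries; symbols are medians, thick bars the middle 50% and thin lines the 10th to 90th percentile of cells. In cluster 2 the medians are 40.9 (knockout), 124 (heterozygote 1) and 86.3 (heterozygote 2), and in clusters 1 and 15 nearly all cells are close to 0.

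Outside these clusters Ren1 ranged widely. Cluster 7, secretory cells led by Tafa5 and Nupr1, was at 1364, 2526 and 1968 CPM, from 11, 73 and 924 cells, and held 7.78% of the Ren1 UMIs of heterozygote 2. The unnamed cluster 5, led by Col6a6 and Gm26917, was at 1018, 3674 and 3028 CPM. Its cells were shallow, with medians of 2388, 3359 and 1455 UMIs. The unnamed cluster 20, led by Sema5b and like cluster 2 by Banf2 and Scin, was at 2111, 2518 and 3328 CPM, from 249, 22 and 132 cells. In cluster 1 Ren1 was lower, at 42.2, 157 and 231 CPM, and in the basal cluster 0 at 134, 154 and 418 CPM. In macrophages the levels were 84.9, 117 and 360 CPM, from 46, 13 and 86 UMIs. Barcodes with under 500 genes stand here for RNA from outside cells, though whether they also hold shallow cells was not tested. They carried Ren1 at 706 CPM in the knockout and 1264 CPM in heterozygote 2, and heterozygote 1 had only 2 such barcodes. After thinning, 10.1%, 14.04% and 32.3% of cells of the basal cluster 0 had a Ren1 UMI. The levels of cluster 1, cluster 0 and macrophages lay below those of the few-gene barcodes of the same library in the knockout and heterozygote 2. No expression is read from them, and a level below these barcodes does not show that expression is absent. Of 18 clusters with at least 50 cells in every library, Ren1 was below both heterozygotes in 14 and above both in 0. Over all genes and these clusters 34.4% of gene-by-cluster values lay below both heterozygotes and 34.0% above both, and the 18 clusters share the same 3 libraries. Free RNA was also subtracted, at an estimated 0.54%, 0.66% and 3.62% of UMIs in the knockout and heterozygotes 1 and 2. Its profile was that of few-gene barcodes, or of all cells in heterozygote 1. How well this subtraction accounts for RNA from outside cells was not tested.

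Some cells outside clusters 2 and 3 carried as much Ren1 as those of cluster 2. The lower quartile of cluster 2 in the same library was reached by 17.9%, 21.6% and 29.7% of the cells of cluster 5 and by 33.3%, 13.6% and 25.8% of those of cluster 20. In cluster 7 of heterozygote 2, 203 of 924 cells reached it. In the endothelial cluster 19, Ren1 was at 746, 1809 and 759 CPM, and the 10 cells with most Ren1 held 32.7%, 85.3% and 61.7% of its UMIs there. In the knockout, 59 of the 276 endothelial cells reached the lower quartile of cluster 2 of that library, 13.2 UMIs per 10000, against 5 of 77 and 5 of 124 cells by the higher quartiles of heterozygotes 1 and 2. Luminal Pbsn was at 6114, 4382 and 5656 CPM in the same endothelial cells. In cluster 24, led by S1pr3 and Rgs5 and rich in smooth muscle and pericyte markers, Ren1 was at 84.3, 2167 and 1202 CPM. The 10 highest cells held 97.6% of the 536 Ren1 UMIs of heterozygote 1 and 64.9% of the 430 of heterozygote 2 in that cluster, so its difference of -4.47 and -3.72 rests on few cells. Subtraction of free RNA left 532 and 414 of the 536 and 430 Ren1 UMIs of cluster 24 in heterozygotes 1 and 2. Doublets in these cells, and free RNA beyond that estimate, were not tested.

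Agt, the substrate of renin, was at the edge of detection. It had 2 UMIs in all knockout cells, 5 in heterozygote 1 and 12 in heterozygote 2, and 0 in barcodes with under 500 genes. The 8 UMIs of heterozygote 2 fibroblasts came from 3 cells, and the 2 of heterozygote 1 fibroblasts from 1 cell. In cluster 2, where Ren1 was highest, Agt had 0 UMIs in every library. At these counts no difference between libraries was detectable for Agt.

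Ace, which makes angiotensin II from angiotensin I, was high in clusters 2 and 3, like Ren1, and also in cluster 1. Its levels were 177, 232 and 258 CPM in cluster 1, in the order knockout, heterozygote 1 and heterozygote 2. They were 189, 170 and 204 CPM in cluster 2 and 135, 128 and 163 CPM in cluster 3. The ranges of clusters 1 and 2 overlap, whereas cluster 3 lay below cluster 2 in each library. Clusters 1, 2 and 3 held 48.3% of Ace UMIs in the knockout and 74.1% and 69.2% in heterozygotes 1 and 2. Cluster 5 was at 76.2, 174 and 145 CPM, which in heterozygote 1 is above clusters 2 and 3, and clusters 7 and 20 were at 126, 148 and 133 CPM and 119, 202 and 137 CPM. Proximal luminal cluster 12, led by Sprr2f and Folr1, was at 104, 69.6 and 80.9 CPM. Ace was lower in cluster 15, at 43.8, 49.2 and 69.2 CPM, and lower still in the basal cluster 0, at 10.7, 11.3 and 16.2 CPM. Endothelial cells had 70.6, 108 and 84.0 CPM from 72, 35 and 28 UMIs. Few-gene barcodes carried Ace at 83.8 CPM in the knockout and 67.2 CPM in heterozygote 2. This is above the endothelial level in the knockout and below it in heterozygote 2. The knockout levels of clusters 5, 15 and 0 and the heterozygote 2 level of cluster 0 also lay below it. Subtraction of free RNA left 71.5, 34.8 and 27.2 of the 72, 35 and 28 endothelial UMIs. Neither presence nor absence of endothelial expression is read from these values.

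Knockout minus heterozygote differences of Ace lay on both sides of 0. The knockout CPM of cluster 2 lay within the heterozygote range, and the log2 difference was 0.21 and 0.01. In cluster 1 it was -0.36 and -0.48, a mean of -0.42 that became -0.039 at clustering resolution 2.0. In cluster 12 and in the seminal vesicle-like cluster 4 the knockout lay above both heterozygotes, by 0.59 and 0.62 and by 0.67 and 0.43 on the log2 scale. The cluster 4 levels were 22.8 CPM in the knockout and 16.2 CPM in heterozygote 2. They lay below those of few-gene barcodes, 83.8 and 67.2 CPM, and no expression is read from them. Ace was below both heterozygotes in 9 of the 18 clusters and above both in 5, against 34.4% and 34.0% of all gene-by-cluster values. The clusters, which share the same 3 libraries, had no common direction. Ren1 and Ace were found together in 85.5%, 75.6% and 84.5% of the cells of cluster 2, so both transcripts were present in most of the same cells there.

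**Figure D3:**
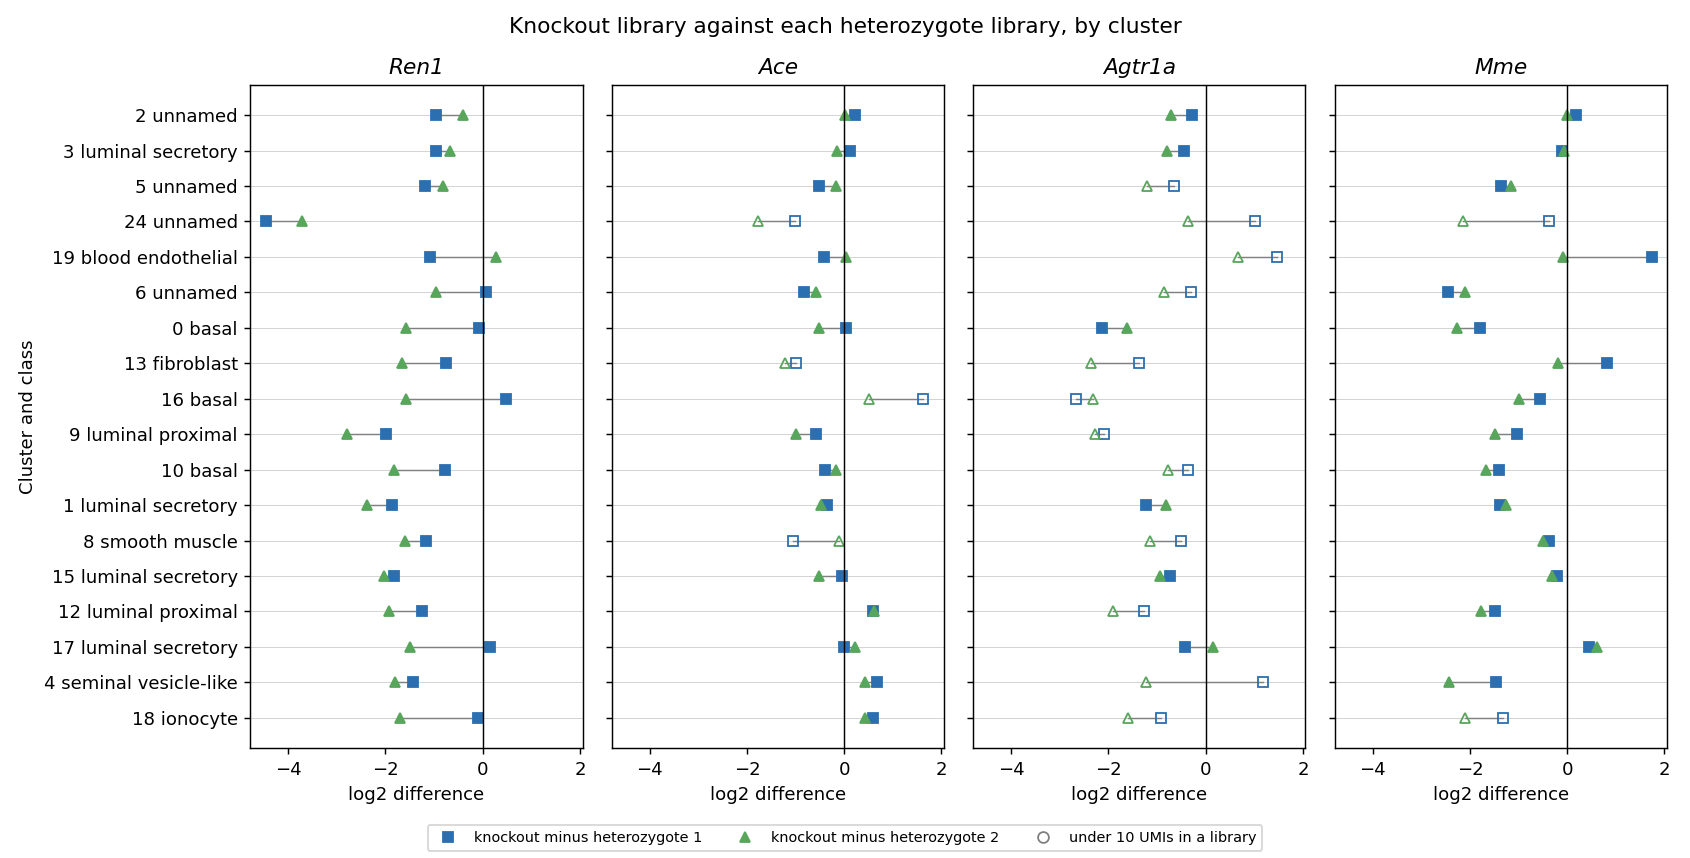
Knockout minus heterozygote difference in log2 CPM (x axis, TMM-scaled totals, prior count 2) for Ren1, Ace, Agtr1a and Mme in each cluster with at least 50 cells in every library (y axis); squares are against heterozygote 1, triangles against heterozygote 2, and open symbols mark values with under 10 UMIs in a library. Ren1 and Mme lie mostly left of 0, Ace lies on both sides, and Mme in cluster 17 lies right of 0 at 0.46 and 0.60.

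Agtr1a, the receptor, was highest in a secretory cluster that had little Ren1. In cluster 15 it was at 84.5 CPM in the knockout, 152 CPM in heterozygote 1 and 178 CPM in heterozygote 2, from 162, 444 and 798 UMIs. Cluster 17 followed at 48.0, 60.7 and 47.1 CPM, and the cluster 15 range lay wholly above it. Clusters 15 and 17 held 54.7% of Agtr1a UMIs in the knockout and 70.1% and 56.3% in heterozygotes 1 and 2, in 1.64%, 10.9% and 6.30% of the cells. In clusters 2 and 3 the levels stayed between 2.64 and 10.0 CPM. Few-gene barcodes carried Agtr1a at 2.70 CPM in the knockout and 11.2 CPM in heterozygote 2. Only the knockout level of cluster 2, 5.48 CPM, lay above them, and no expression is read from clusters 2 and 3. Cluster 21, a proximal luminal group with 353 cells of heterozygote 2 and 1 of the knockout, had 45.0 CPM in heterozygote 2.

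In cluster 15 the knockout level of Agtr1a was below both heterozygotes, with log2 differences of -0.72 and -0.94. After thinning to 1000 UMIs, 8.0%, 13.6% and 17.6% of the cells of cluster 15 had an Agtr1a UMI, in the same order of libraries. For cluster 17 the differences were -0.41 and 0.16, one on each side of 0. The basal cluster 16, led by Scpep1 and Trp63, had 41.5 and 30.9 CPM in the heterozygotes and 4.11 CPM in the knockout, from 15, 35 and 5 UMIs. Agtr1a was below both heterozygotes in 14 of the 18 clusters, but in only 6 of the 18 did every library hold at least 10 UMIs. Over all genes the share of gene-by-cluster values below both was 34.4%, and the clusters share the same 3 libraries.

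Mme, the peptidase, was concentrated in the same cluster as Agtr1a. In cluster 15 it was at 1328 CPM in the knockout, 1660 CPM in heterozygote 1 and 1793 CPM in heterozygote 2. Cluster 1 had 177, 472 and 443 CPM and cluster 17 had 414, 285 and 298 CPM, ranges that overlap each other and lie well below cluster 15. Clusters 2 and 3 were lower again, between 88.8 and 113 CPM over both clusters and all libraries. In heterozygote 2 they were at 106 and 113 CPM, below the 186 CPM of its few-gene barcodes, and no expression is read from those values. Cluster 7 and cluster 21, which came mostly from heterozygote 2, had 329 and 462 CPM in that library. Fibroblasts, at 115, 74.0 and 142 CPM, and smooth muscle cells of cluster 8, at 73.8, 110 and 112 CPM, also held Mme UMIs. Few-gene barcodes carried Mme at 75.2 CPM in the knockout and 186 CPM in heterozygote 2, so the heterozygote 2 levels of both and the knockout level of cluster 8 lay below it, and only the knockout level of fibroblasts lay above it. Subtraction of free RNA left 165, 13.7 and 53.3 of the 166, 14 and 56 fibroblast UMIs. In cluster 8 it left 269, 71.8 and 102 of 270, 73 and 108. Neither presence nor absence of stromal expression is read from these values. Cells of cluster 15 with both Agtr1a and Mme were 78.0%, 68.1% and 79.3% of the cluster.

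The difference in Mme between the libraries depended on the cluster. In cluster 15 the knockout was slightly lower, by -0.20 and -0.31 on the log2 scale. In cluster 1 it was lower by a wider margin, at -1.39 and -1.26, and the median cell had 1.51 Mme UMIs per 10000 against 4.03 and 3.93. In cluster 17 the knockout was above both heterozygotes, at 0.46 and 0.60. That cluster held only 50 knockout cells, of which 10 carried 57.2% of the Mme UMIs, and the median cell had 2.79 per 10000 against 2.49 and 2.60. In the basal cluster 0 Mme was at 12.0, 46.7 and 62.8 CPM. The knockout and heterozygote 2 values lay below the few-gene barcodes, at 75.2 and 186 CPM, and no expression is read from them. Mme was below both heterozygotes in 14 of 18 clusters and above both in 1, against 34.4% and 34.0% of all gene-by-cluster values. These clusters share the same 3 libraries.

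**Figure D4:**
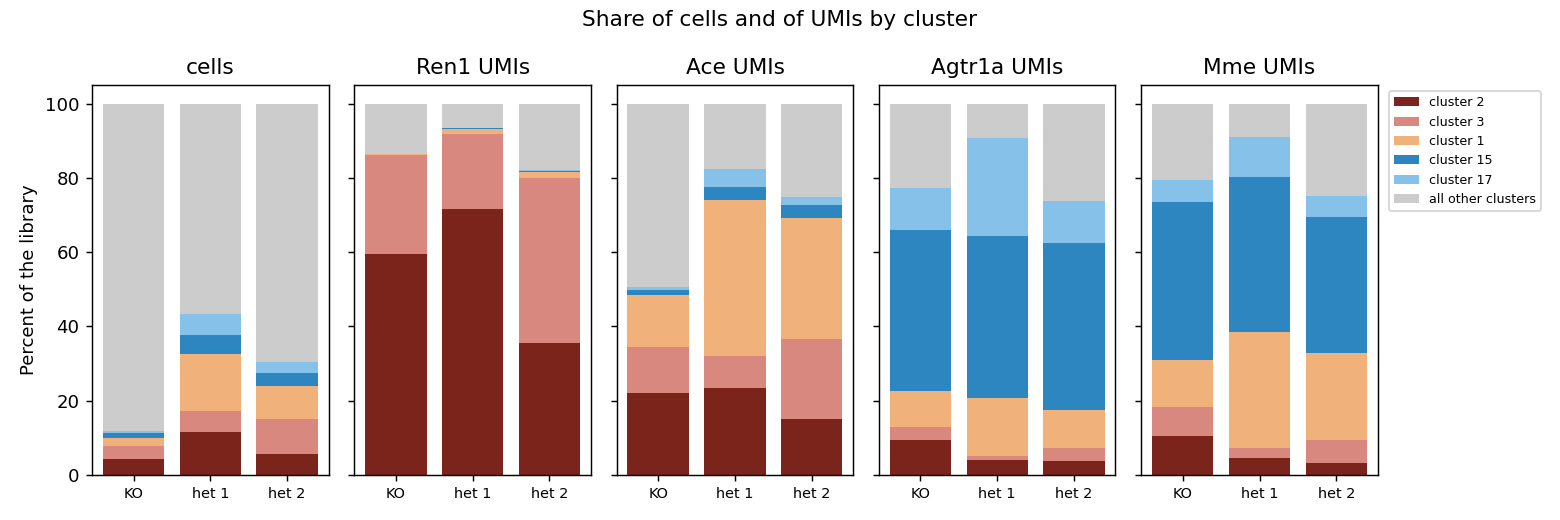
Percent of each library (y axis, from 0) found in clusters 2, 3, 1, 15, 17 and all other clusters, for cells and for the UMIs of Ren1, Ace, Agtr1a and Mme; KO is the knockout, het 1 and het 2 the heterozygotes. Clusters 2 and 3 hold 80.0% to 91.8% of Ren1 UMIs, and cluster 15 holds 43.4% to 45.0% of Agtr1a UMIs and 36.6% to 42.4% of Mme UMIs.

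Over 69 sums of a library and cluster with at least 50 cells, the Pearson correlation of log2(CPM + 1) was 0.79 for Agtr1a and Mme, 0.61 for Ren1 and Ace, and 0.18 for Ren1 and Agtr1a. These sums share libraries and depth, so the values are a description. Among 13833 genes with at least 200 UMIs, the 5 most like Ren1 were C1s2 (0.94), C1rb (0.92), Glb1l3 (0.91), Gm37223 (0.90) and 9530053A07Rik (0.89). C1s2, a complement protease gene, was at 223, 381 and 469 CPM in cluster 2 and 222, 370 and 456 CPM in cluster 3, against 4.7, 5.8 and 6.2 CPM in cluster 15. The 5 most like Ace were Tst (0.86), Bcl2l14 (0.85), Dnajc10 (0.85), Pmm2 (0.83) and Ibtk (0.81). For Agtr1a they were Defb50 (0.80), Wfdc3 (0.80), Mme (0.79), Pdlim2 (0.78) and Cdcp3 (0.77). For Mme they were Defb50 (0.89), Apof (0.89), 9530002B09Rik (0.88), Azgp1 (0.87) and Scd1 (0.86). Defb50, a defensin gene and a marker of cluster 15, stood at the head of both the Agtr1a and the Mme list.

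Whether the knockout library differed from the heterozygotes was fitted over all genes with edgeR's quasi-likelihood test on UMIs summed per library, Benjamini-Hochberg adjusted at 0.05. With 1 library against 2 the fit has 1 residual degree of freedom, and an exact permutation of the libraries could not give a p below 0.33. In the named luminal clusters together 490 of 16147 genes were called, 3.03%, and 1 of the 4 members tested was among them, Agtr1a. With DESeq2, without the low-count filter and in the secretory clusters alone 0 members were called. In cluster 2 0 of 4 members were called (1.86% of all genes), in cluster 3 0 of 4 (2.39%) and in cluster 17 0 of 4 (0.597%). In cluster 1 Ren1 and Mme were called (2.94%), in cluster 15 Ren1 (1.29%) and in cluster 9 Ren1 and Mme (2.14%). Members were also called in clusters 0, 4, 6, 8, 10, 12, 13, 16 and 24, and none in clusters 5, 18 and 19. Nothing is read from these calls, because the members were chosen with these differences in view.

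The other genes of the pathway, 39 in 4 lists, mostly did not pass the test. Among angiotensin receptors and their partners, most UMIs came from Atp6ap2, the prorenin receptor, with 15446 and Lnpep, which cleaves angiotensin peptides, with 7419. In named luminal cells Atp6ap2 was at 70.3, 103 and 88.1 CPM. Agtr1b, the paralog of Agtr1a, had 48 UMIs in all cells and the angiotensin receptor Agtr2 had 25. Among other peptidases Rnpep, with 10299 UMIs, and Prep, with 7079, had the most. Sgk1, a kinase induced by mineralocorticoids and glucocorticoids, had 78143 UMIs and the mineralocorticoid receptor Nr3c2 had 4627. Of the kinin and natriuretic peptide genes, Tac1, which encodes substance P, had 2379 UMIs and the bradykinin receptor Bdkrb2 had 527.

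In the named luminal clusters together 1 of 23 other pathway genes tested rose and 0 fell, where 3.03% of all genes were called. The median log2 difference of the 23 was -0.17 against -0.04 over all genes. The one that rose was the natriuretic peptide clearance receptor Npr3, with 43 UMIs in the knockout and 12 and 20 in the heterozygotes (2.26, 0.47 and 0.39 CPM on TMM-scaled totals), a log2 difference of 2.40 ± 0.60 (SE; edgeR adjusted p = 0.00364). The Npr3 call ended with DESeq2, where 0 of 20 pathway genes passed, and without the low-count filter, where 0 of 35 passed. In the secretory clusters alone 0 of 20 passed. Proximal cluster 12 made up 381 of the 1228 knockout cells in this sum, against 312 of 2238 and 124 of 4062 heterozygote cells, and the part of this makeup was not tested.

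In cluster 1, 2 of 18 rose, with 2.94% of all genes called. Anpep, an aminopeptidase that trims angiotensin III, had 70, 33 and 33 UMIs (16.7, 4.32 and 2.80 CPM) and a log2 difference of 2.26 ± 0.37 (edgeR adjusted p = 3.84e-07). Tac1 had 90, 60 and 129 UMIs (21.5, 7.85 and 10.9 CPM) and a difference of 1.18 ± 0.32 (edgeR adjusted p = 0.0134). In clusters 2 and 3, where Ren1 was highest, 0 of 15 passed in each, with medians of -0.08 and -0.13. Of all genes, 1.86% and 2.39% were called there. In clusters 15 and 17, 0 of 16 and 0 of 17 passed, with 1.29% and 0.597% of all genes called.

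In cluster 9, proximal luminal cells led by Psca and Krt4, 1 of 17 fell, with 2.14% of all genes called. Hsd11b2, which protects the mineralocorticoid receptor from glucocorticoids, had 0 UMIs in the knockout and 11 and 26 in the heterozygotes (edgeR adjusted p = 0.0295). A floor of 3 UMIs in the knockout library, 1.92 CPM, is 3.91-fold below the 7.51 CPM of both heterozygotes pooled. Against heterozygote 1 alone, with its 11 UMIs in 377 cells, the fold is smaller. Counting error in the heterozygotes is left out. In fibroblasts 2 of 11 rose, with 1.44% of all genes called and 1 of 3 members. Nppc, C-type natriuretic peptide and a substrate of Mme, had 206, 1 and 11 UMIs (161, 5.12 and 29.3 CPM) and a log2 difference of 2.97 ± 0.45 (edgeR adjusted p = 1.18e-08). Tac1 had 88, 4 and 4 UMIs (68.8, 20.5 and 10.7 CPM) and a difference of 2.26 ± 0.56 (edgeR adjusted p = 0.00568). Only 60 fibroblasts came from heterozygote 1, against 533 from the knockout and 210 from heterozygote 2.

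In seminal vesicle-like cells 3 of 18 other pathway genes were higher in the knockout and 3 were lower, where 13.8% of all genes and 3 of 4 members were called. Of the 2069 knockout cells of that class 1569 were in clusters 11 and 14, which held 7 cells of heterozygote 1 and 1 of heterozygote 2. Rnpep (edgeR adjusted p = 0.00451) and the sodium channel subunit Scnn1b (edgeR adjusted p = 7.35e-06) were higher, and Prcp (edgeR adjusted p = 0.00014) and Sgk1 (edgeR adjusted p = 0.0498) lower. On plain totals Rnpep was at 41.6 CPM in the knockout, between the 44.1 and 37.3 CPM of the heterozygotes, so its direction rests on the TMM scaling. Npr1 had 87 UMIs in the knockout and 2 in both heterozygotes together, a ratio of 12.5 with an exact 95% interval of 3.36 to 105 for counting error. Agtr2 had 0, 0 and 16 UMIs, all from heterozygote 2. Within cluster 4, the one seminal vesicle-like cluster filled by all libraries, 0 of 17 passed, with 2.55% of all genes and 2 of 3 members called.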

How the data were processed

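The authors deposited UMI counts for each gene and barcode, as whole numbers that were not normalized. The submitters' processing notes name Cell Ranger 3.1.0 and the mm10 build, and the chemistry and cell calling were not given in the sources used here. The members and gene lists were chosen with earlier results of these data known.

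A barcode was kept with 500 or more genes and no more than 15% of UMIs from mitochondrial genes, which left 9983, 4718 and 10587 barcodes (knockout, heterozygote 1, heterozygote 2). The deposited totals were 129015041, 47601747 and 100801564 UMIs. Doublets, scored against simulated doublets at an expected 0.8% per 1000 cells, were removed (837, 187 and 1132). Cells of all libraries entered one clustering with no batch term, on 2000 variable genes, 30 components and 20 neighbors (Leiden, igraph 0.11.9, resolution 1.0) into 30 clusters. Component coordinates were rounded to whole-number steps to limit dependence on the arithmetic kernel, and the kernel was fixed. The 70 genes with at least 0.1% of UMIs in few-gene barcodes were left out. Ren1, Mme and Agt were among the clustering genes. A cluster was named with at least 3 markers detected (log2 fold of 1 or more, 25% of cells) and no excess of another type's markers among its 10 leading genes.

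CPM are per plain total, with exact Poisson intervals. Shares of cells were also taken after thinning to 1000 UMIs. Differences are log2 CPM on TMM-scaled totals with a prior count of 2. Sums per library were tested with edgeR 4.0.16 (filterByExpr, TMM, quasi-likelihood) where every library had at least 50 cells, and DESeq2 1.42.0 was an alternative. On simulated counts for the luminal comparison with 16147 genes, 22 of 100 genes changed by a log2 of 1 and 91 of 100 changed by a log2 of 2 were recovered, with 10 false calls. The changed genes were drawn from genes of higher mean CPM only, and all genes had a common dispersion. Recovery of genes at low CPM was not measured. Replicate numbers only name the samples. Named genes are the members, every listed pathway gene passing the test in a fitted class, the 2 with most UMIs in each list, and the 5 genes most like each member. Pecam1, Cdh5, Epcam and Pbsn are cell type markers, and C1s2 heads the list of genes like Ren1.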

Additional observations from a re-analysis of the deposited data

Results flagged for a closer look

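Some genes had the knockout above both heterozygotes in one cluster and below both in another, with at least 10 UMIs in every library. The difference between the clusters was not tested, and 34.0% and 34.4% of all gene-by-cluster values lie above or below both heterozygotes.

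Ace was above both heterozygotes in proximal luminal cluster 12, with a mean log2 difference of 0.61, and below both in proximal luminal cluster 9, with -0.79. The cluster 9 value comes from 21, 71 and 62 UMIs and the cluster 12 value from 788, 280 and 189 UMIs in the knockout and heterozygotes 1 and 2. Mme was above both in cluster 17, with a mean of 0.53, and below both in cluster 6, with -2.28. Cluster 6 is unnamed, led by Gm4876 and Rrp1b, with a median of 1915 UMIs per cell, and its Mme value comes from 53, 75 and 178 UMIs. Ace in cluster 9 was at 13.4 CPM in the knockout and 31.5 CPM in heterozygote 2, below the 83.8 and 67.2 CPM of few-gene barcodes. Mme in cluster 6 was at 35.9 and 171 CPM in these libraries, below their 75.2 and 186 CPM. The subtraction of free RNA left 20.3, 69.1 and 57.2 Ace UMIs in cluster 9. In cluster 6 it left 52.4, 74.4 and 171 Mme UMIs. No difference in expression is read from either cluster, and free RNA beyond that estimate was not tested.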

How the results depend on the processing

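Ren1 in cluster 2 (-0.42 to -0.96 over 13 alternatives), Ren1 in cluster 3 (-0.68 to -0.95) and Agtr1a in cluster 15 (-0.72 to -0.96) kept their direction and stayed within 1 SD of the 2 differences. Leaving out heterozygote 1 or 2 gave -0.42 and -0.96 for Ren1 in cluster 2, the ends of its range. These 2 alternatives return the single differences, which always lie within 1 SD of their mean, so for them that limit is no check. At clustering resolution 0.5, clusters 2 and 3 matched the same merged cluster of 2913 cells, so that alternative is the same sum for both. For Ace in cluster 1 the difference of -0.42 was -0.039 at clustering resolution 2.0. For Mme in cluster 15 it was -0.38 on plain totals and -0.16 with doublets kept, against -0.25. Agtr1a in cluster 17 turned to 0.16 without heterozygote 1 and was -0.41 without heterozygote 2. The causes were not tested. Mme in cluster 17 ran from 0.34 to 0.60 and Mme in cluster 1 from -1.15 to -1.39.

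The 490 genes called in luminal cells became 180 with DESeq2, 307 under the stricter filter on cells and 246 over secretory clusters only. Without the low-count filter edgeR called 0 of 26357 genes, of which 1115 had an unadjusted p under 0.05. With cluster 2 added, a choice made after seeing the data, 506 were called. Leaving out a heterozygote leaves 1 library against 1, which has no test. The 5 genes most like Ren1 were the same 5 by Spearman's correlation, as were those of Ace, and 4 of 5 were shared for Agtr1a and for Mme. No paired analysis was possible because the knockout is 1 library and replicate numbers only name the samples.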
